A study of Mus musculus with 6 samples.

Results

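The genes described here lie in a stretch of distal mouse chromosome 4, between 145 and 152 Mb of GRCm38, in heart ventricles of embryos at embryonic day 17.5. A gene was a member if its lowest coordinate fell in this stretch and its counts summed over all libraries reached 60, leaving out Nppa, Nppb and Eno1. This gave 62 of the 25006 genes listed, or of the 14773 genes with such a sum. Of these, 12 carry a Zfp, Gm or Rik symbol and are called the zinc finger class, and 50 are other genes. The segment was chosen by its genes' fold changes and calls between null-labelled and control libraries in these same data, around which its borders were drawn. Fold changes and calls of the members are therefore given as a description, with no test, and nothing is supported by their number.

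The null-labelled group holds 3 libraries with the genotype label VecadcreERT2; Prox1f/f, in which a tamoxifen-inducible Cre recombinase driven by the promoter of VE-cadherin, a gene of endothelial cells, acts on loxP-flanked Prox1. The control group holds 3 libraries labelled WT. Both groups have the NMRI strain background and come, per the labels, from litters whose mothers received tamoxifen (5 mg for 40 g of body weight) at E13.5 and E14.5. The labelled breeding cages paired Prox1 f/f females with Cre-carrying Prox1 f/f males, a cross whose offspring all carry Prox1 f/f. The control label WT does not match such offspring, and the labels do not settle whether controls carry the floxed allele. Cre is named only for the null-labelled group, so loss of Prox1, the Cre transgene and any segment inherited with it cannot be told apart. The same holds for a chromosome segment inherited with the floxed allele if controls lack that allele. Nothing in the labels says whether the libraries of a group came from separate embryos. Sex-linked counts, given below, differed within each group, so its 3 libraries did not all come from 1 embryo. The spread between libraries may still be partly technical.

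Prox1, the targeted transcription factor of lymphatic identity, had 6581, 5809 and 6924 counts in null-labelled libraries and 6549, 5164 and 5265 in controls. It was slightly higher, not lower, under the null label (log2 fold change 0.15 ± 0.03, SE, adjusted p = 0.0331 by edgeR), and the groups did not overlap. Counts of whole ventricle do not separate endothelial cells from other cells. Prox1 counts therefore do not check the labels, on which every direction here rests. Esr1, the oestrogen receptor gene whose human counterpart supplies the ligand-binding part of CreERT2, had 298, 244 and 290 counts in null-labelled libraries and 14, 9 and 19 in controls. Library totals ranged from 36216206 to 41408973 counts in null-labelled libraries and from 35195544 to 44330594 in controls, at which 3 counts equal 0.0682 to 0.0849 CPM (counts scaled to library size). Null 1 and null 3 held 1798 and 5738 counts of the X-linked Xist together with 2999 and 3129 counts of the Y-linked Ddx3y, whereas control 1 and control 2, which also carried Y-linked counts, had 28 and 29 counts of Xist. Null 2 and control 3 had 50586 and 49485 counts of Xist and 69 and 55 of Ddx3y. Null 2 also held 140 counts of the lung gene Sftpc, against 0 to 10 in every other library. The summed level of 4 erythroid markers was 504.6 to 804.4 CPM in null-labelled libraries and 804.3 to 2146 CPM in controls. The summed level of 6 ventricular cardiomyocyte genes was 63350 to 65000 CPM in null-labelled libraries and 62040 to 67250 CPM in controls, and 1 of them, Actc1, fell (log2 fold change −0.18 ± 0.04). Of 5 macrophage markers 3 rose (summed level 52.0 to 68.5 against 41.45 to 46.7 CPM), and of 4 endothelial markers 3 fell (794.9 to 861.5 against 894.1 to 985.2 CPM). Of all genes tested, 2.43% rose and 2.98% fell by edgeR. In whole ventricle, fewer cells of a type and less RNA per cell cannot be told apart.

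The lower end of this stretch is a cluster of genes for KRAB zinc finger proteins, a family of DNA-binding repressors in which arrays of C2H2 zinc fingers recognise DNA and the KRAB domain recruits the corepressor TRIM28. Many such proteins bind and silence retrotransposons, and the clusters arose by repeated gene duplication, so that neighbours are close copies and differ between mouse strains. Directly beside the cluster lies Fv1, a restriction gene against murine leukaemia viruses known for its strain alleles. The rest of the stretch holds genes of unrelated function, among them Mfn2, which fuses mitochondria, Mtor, the growth-controlling kinase, and receptors of the tumour necrosis factor family.

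Several zinc finger genes of the cluster have closely similar promoters. RefSeq promoter entries of GRCm38.p6, which run from 250 bases before to 50 bases after a gene start, were found for 9 of the 12 genes of the zinc finger class, 11 entries in all. They are shown for the 7 matched genes with C2H2 patterns: genes that rose, genes that fell, Zfp981, which was not called, and Zfp933, uncalled and unlike the rest. Zfp982 has 3 entries, of which the entry nearest the GENCODE gene start is shown; the entries starting at 147442864 and 147500436 are not shown. Gm13212 lies at chr4:145584950-145585249 and Zfp981 at chr4:146514670-146514969, both on the plus strand. Zfp982 lies at chr4:147492167-147492466 and Zfp985 at chr4:147553027-147553326, also on the plus strand. Zfp979 lies at chr4:147642459-147642758, Zfp984 at chr4:147809739-147810038 and Zfp933 at chr4:147848369-147848668, all on the minus strand. Each sequence reads 5′ to 3′ on the strand of its gene. Capitals mark matches, on either strand, to the CCAAT box, to the GC box with the letters GGGCGG, to the TATA box with the letters TATAAA, to the E-box with the letters CACGTG or to the core of interferon-stimulated response elements, whose pair of GAAA words has 2 free bases between.
Gm13212: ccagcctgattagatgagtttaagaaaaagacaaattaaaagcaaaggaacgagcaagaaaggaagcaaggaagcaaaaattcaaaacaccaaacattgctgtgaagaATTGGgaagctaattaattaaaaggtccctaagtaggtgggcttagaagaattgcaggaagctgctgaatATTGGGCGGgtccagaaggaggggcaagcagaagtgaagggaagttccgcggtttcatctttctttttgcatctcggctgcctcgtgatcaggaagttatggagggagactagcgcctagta
Zfp984: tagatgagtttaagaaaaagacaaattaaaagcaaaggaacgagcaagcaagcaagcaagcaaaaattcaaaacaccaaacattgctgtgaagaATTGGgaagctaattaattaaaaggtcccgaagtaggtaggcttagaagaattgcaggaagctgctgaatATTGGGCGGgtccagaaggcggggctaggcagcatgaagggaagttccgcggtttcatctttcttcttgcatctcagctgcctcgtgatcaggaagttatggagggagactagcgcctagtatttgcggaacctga
Zfp981: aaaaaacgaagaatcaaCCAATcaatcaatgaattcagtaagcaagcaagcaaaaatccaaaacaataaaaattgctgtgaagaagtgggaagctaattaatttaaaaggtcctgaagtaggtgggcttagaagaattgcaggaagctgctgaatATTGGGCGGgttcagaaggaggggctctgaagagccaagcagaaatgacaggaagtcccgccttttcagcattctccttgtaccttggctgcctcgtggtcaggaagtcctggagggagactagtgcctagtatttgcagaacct
Zfp982: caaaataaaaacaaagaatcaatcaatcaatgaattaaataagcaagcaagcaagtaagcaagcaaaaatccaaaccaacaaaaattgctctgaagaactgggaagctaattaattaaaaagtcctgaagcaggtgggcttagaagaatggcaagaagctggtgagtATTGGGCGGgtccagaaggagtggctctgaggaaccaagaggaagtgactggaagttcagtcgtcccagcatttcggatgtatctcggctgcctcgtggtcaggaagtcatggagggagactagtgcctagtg
Zfp985: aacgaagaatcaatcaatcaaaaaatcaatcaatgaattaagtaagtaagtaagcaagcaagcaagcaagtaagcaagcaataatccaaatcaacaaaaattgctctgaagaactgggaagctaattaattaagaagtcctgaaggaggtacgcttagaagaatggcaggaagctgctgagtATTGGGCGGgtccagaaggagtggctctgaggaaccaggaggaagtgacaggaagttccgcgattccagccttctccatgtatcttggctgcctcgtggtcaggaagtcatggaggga
Zfp979: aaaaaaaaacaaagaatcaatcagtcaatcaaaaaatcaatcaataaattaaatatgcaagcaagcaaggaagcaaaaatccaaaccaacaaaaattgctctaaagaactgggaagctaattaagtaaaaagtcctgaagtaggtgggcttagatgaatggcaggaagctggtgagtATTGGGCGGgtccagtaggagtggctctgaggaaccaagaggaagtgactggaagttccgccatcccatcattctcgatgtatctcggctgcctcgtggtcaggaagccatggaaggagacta
Zfp933: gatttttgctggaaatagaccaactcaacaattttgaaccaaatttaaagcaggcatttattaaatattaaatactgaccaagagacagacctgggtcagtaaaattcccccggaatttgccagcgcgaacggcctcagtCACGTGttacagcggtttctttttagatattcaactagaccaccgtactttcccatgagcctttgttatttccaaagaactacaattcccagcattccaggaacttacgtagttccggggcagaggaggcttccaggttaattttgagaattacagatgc

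In 6 of the 7 promoters shown, and in 6 of the 11 entries of the class (54.5%), a CCAAT box on the opposite strand runs into a GC box as ATTGGGCGG, a joined motif that was noticed after the sequences were read. The 6 are Gm13212, Zfp984, Zfp981, Zfp982, Zfp985 and Zfp979, and the motif ends 59 to 86 bases before the RefSeq start. Both other entries of Zfp982 lack it. Among all 32851 promoter entries of the table, 0.256% hold this word on either strand, and 0 of the 63 entries of the other members do. Among the single motifs, GGGCGG occurred in 72.7% of the 11 zinc finger class entries. It occurred in 61.9% of the 63 entries of the other members and in 35.7% of all entries. In the same order, CCAAT occurred in 63.6%, 42.9% and 37.4%, and CACGTG in 9.09%, 9.52% and 7.15%. The interferon-stimulated core occurred in 9.09%, 1.59% and 3.44%. TATAAA occurred in 0 of the 11 entries, in 4.76% of the 63 and in 13.6% of all. GGGCGG and CCAAT overlap in the joined motif, so their counts are not independent. A match is a run of letters and no evidence of binding.

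By global alignment the promoters of the 6 genes with the joined motif were 67.9% to 87.6% identical over 15 pairs, and Zfp933 was 44.2% to 49.1% identical to them. The closest pair was Gm13212 and Zfp984, at 87.6%. Gm13212 fell and Zfp984 rose in null-labelled ventricles. Zfp982, which rose, and Zfp979, which fell, were 84.6% identical, by the entry shown for Zfp982 and not by its other entries, which were not aligned. Closely matching windows thus stood before genes of either direction, and a link of the windows to direction was not tested. The calls of Gm13212 and Zfp982 each held in only 1 of the 6 fits with a library left out. No entry was matched for Zfp990, Zfp992 and Zfp991, the gene with the largest rise of the class.

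Zinc finger genes moved in both directions. Of the 12 genes of the class 7 changed (58.3%, against 5.41% of all 14815 genes tested), 4 higher and 3 lower in null-labelled ventricles, by edgeR at an adjusted p under 0.05. Of all genes, 2.43% rose and 2.98% fell. For the other members it was 12 of 50 (24%), 4 higher and 8 lower. These counts depend on single libraries: the 7 became 3, 2 and 3 without null 1, null 2 and null 3. They became 4 without control 2 and 6 without control 1 or control 3. The 12 became 8, 5 and 4 without null 1, null 2 and null 3. Without control 1, control 2 and control 3 they became 7, 5 and 14. Calls over all tested genes moved as well, from 801 to 385, 258 and 277 without null 1, null 2 and null 3. Without control 1, control 2 and control 3 these were 574, 402 and 942. Without null 1 and null 3 together, 1 gene of the class and 2 other members were called. The groups did not overlap for 10 of 12 zinc finger class genes (4 higher, 6 lower) and 23 of 50 others (11 higher, 12 lower), against 26.6% of all genes (12.7% higher, 13.9% lower). The size of the log2 fold change exceeded 0.5 for 8 of 12 and 5 of 50, against 6.86% of all genes. Because the class moved both ways, its median log2 fold change was 0.02, while its median size was 0.62; for the other members these were −0.00 and 0.12, and for all genes −0.00 and 0.09. All 62 members passed the filter on low counts.

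**Figure D1:**
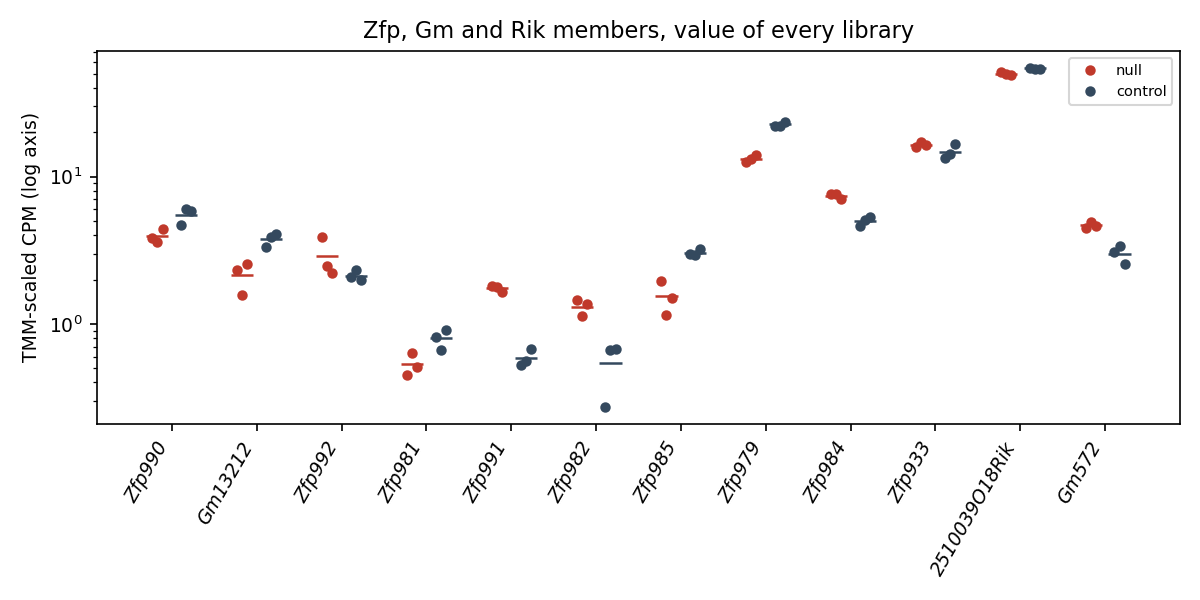
TMM-scaled CPM (log axis) of the 12 members with Zfp, Gm or Rik symbols, in order along the chromosome, with 3 null-labelled libraries in red to the left of 3 control libraries in dark blue and a line at each mean. The groups are separate for 10 genes and overlap for Zfp992 and Zfp933.

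Zfp979 had the clearest fall within the class. It lies at 147611937 to 147642513 on the minus strand and had 504, 476 and 580 counts in null-labelled libraries against 978, 795 and 829 in controls. In TMM-scaled CPM this was 12.5, 13.1 and 14.0 against 22.2, 22.1 and 23.5, and its log2 fold change was −0.77 ± 0.07 (SE). Every null-labelled library lay below every control, and the spread within each group (SD 0.762 and 0.758 CPM, n = 3) was small beside the gap. Zfp985 had 79, 42 and 62 counts in null-labelled libraries and 132, 105 and 113 in controls, a log2 fold change of −0.97 ± 0.20. Gm13212 had 93, 57 and 105 counts in null-labelled libraries and 147, 139 and 145 in controls, a log2 fold change of −0.81 ± 0.19. In both genes null 2 was the lowest library.

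Zfp991 had the largest rise of the class. It starts at 147132038 on the plus strand and had 73, 65 and 68 counts in null-labelled libraries against 23, 20 and 24 in controls, a log2 fold change of 1.58 ± 0.21. Means were 1.75 ± 0.0908 CPM in null-labelled libraries and 0.586 ± 0.0825 CPM in controls (SD, n = 3), and the groups did not overlap. Zfp982, a neighbour, had 58, 41 and 56 counts in null-labelled libraries and 12, 24 and 24 in controls (log2 fold change 1.30 ± 0.32), control 1 being the lowest library. Zfp984 had 305, 276 and 289 counts in null-labelled libraries and 203, 183 and 187 in controls, a log2 fold change of 0.57 ± 0.10. The remaining rise belonged to Gm572 (181, 179 and 192 counts in null-labelled libraries against 135, 121 and 90 in controls, log2 fold change 0.65 ± 0.14), which lies outside the cluster and whose longest open reading frame has no zinc finger.

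Of the class, 5 genes were not called. Zfp933 had 15.8, 17.1 and 16.3 CPM in null-labelled libraries and 13.3, 14.2 and 16.5 CPM in controls, with control 3 inside the range of the null-labelled libraries. Zfp992 had 3.90, 2.48 and 2.23 CPM in null-labelled libraries and 2.07, 2.33 and 1.98 CPM in controls; null 1 stood above all others, and null 3 lay below control 2. Zfp990 (3.60 to 4.38 against 4.68 to 6.03 CPM) and Zfp981 (0.448 to 0.633 against 0.667 to 0.906 CPM) were lower in every null-labelled library but did not pass. The remaining gene, 2510039O18Rik, has no zinc finger and had 48.7 to 51.6 against 53.9 to 54.9 CPM.

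The sum over the class was lower in every null-labelled library. Summed levels were 107.8, 105 and 104.8 CPM in null-labelled libraries and 112.8, 115.9 and 119.1 CPM in controls, a ratio of 0.913. The largest part of this sum is 2510039O18Rik, which has no zinc finger (50.1 ± 1.48 CPM in null-labelled libraries and 54.3 ± 0.517 CPM in controls, SD, n = 3). The 4 genes that rose summed to 15.1 ± 0.427 CPM in null-labelled libraries and 9.11 ± 0.5999 CPM in controls, and the 3 that fell to 16.9 ± 1.133 and 29.4 ± 1.19 CPM (SD, n = 3 each). Per kilobase of merged exons, a scale on which genes can be compared, Zfp979 stood above the other 9 genes of the class with zinc fingers in controls (5.495 CPM per kb, with 3.43 for Zfp933 and 0.201 to 1.72 for the others). In null-labelled libraries it had 3.22 CPM per kb and stood below Zfp933 with 3.84. The 2 groups thus ranked these genes differently, a description that carries no test.

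Of the 12 symbols of the class, 10 belong to genes whose longest open reading frame holds C2H2 patterns. The number of patterns was 3 to 20, with 20 in Gm13212, 11 each in Zfp991, Zfp992 and Zfp984, and 3 in Zfp979. Among the other members only Casz1, a zinc finger transcription factor of heart development, had such patterns (10), and it was not called (141.7 to 156.7 against 159.4 to 162.8 CPM). With the class taken as genes that hold the pattern, 6 of 11 changed, 3 higher and 3 lower.

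Close copies limit how far the counts of a single zinc finger gene can be read. The share of 50-base words in a gene's GENCODE transcripts that also occur in transcripts of another gene had a median of 28.1% over the class (0% to 82.2%) and of 0% over the other members. For Zfp991 it was 82.2%, for Gm13212 56.8%, for Zfp984 54.5%, for Zfp992 43.0%, for Zfp981 40.0% and for Zfp990 29.1%. For Zfp979, Zfp985 and Zfp982 it was 27.1%, 15.9% and 11.9%, and for Zfp933 1.83%. How the counting treated reads that fit several genes, and the read length, are not stated in the labels or notes, so values of these genes are uncertain. Gm13212 and Zfp984 share 45.9% and 46.9% of their words with each other and moved in opposite directions; their summed level was 9.90, 9.16 and 9.54 CPM in null-labelled libraries and 7.95, 8.95 and 9.40 CPM in controls, ranges that overlap. Zfp991 and Zfp992 are also close copies, and their sum was 5.72, 4.26 and 3.87 against 2.59, 2.89 and 2.66 CPM. This sum does not cover the closest copy of Zfp991, Znf41-ps, which holds 67.1% of its words and has no row in the counts used here. The shares use the reference strain's transcripts, and the sequence of the NMRI embryos was not analysed here.

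**Figure D2:**
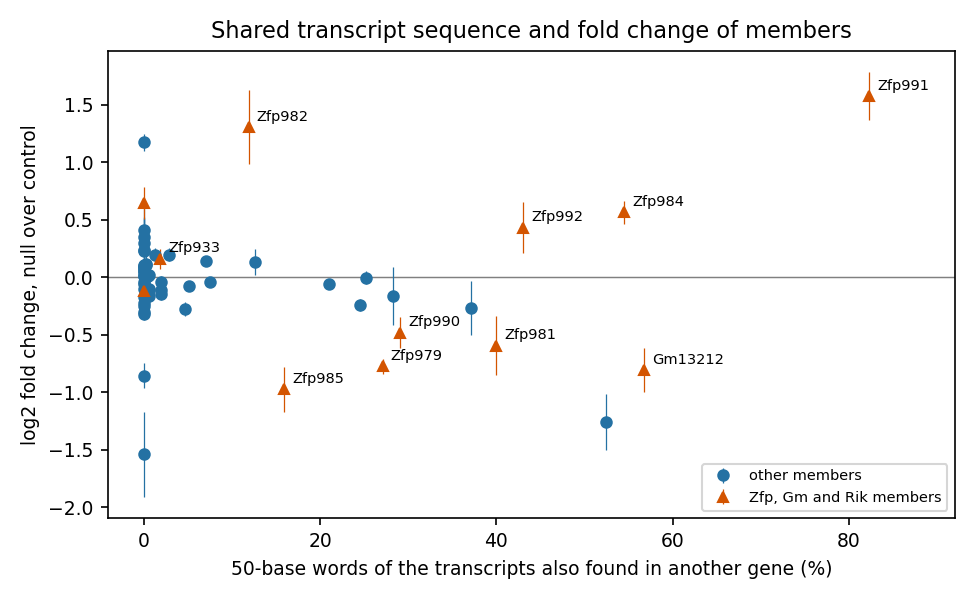
Share of 50-base words of each member's transcripts that occur in another gene (x axis, percent) and log2 fold change of null-labelled over control with its SE (y axis); Tnfrsf9 is left out for scale. Members with Zfp, Gm or Rik symbols (orange triangles) with large and with small shares lie both above and below 0. Gm572 and 2510039O18Rik, at a share of 0%, are among them and hold no C2H2 pattern.

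Among the other members, receptors and signalling genes held the largest rise. Tnfrsf9, which encodes the costimulatory receptor 4-1BB of activated T cells, lies at 150914562 to 150946102 and had 75, 55 and 70 counts in null-labelled libraries against 1, 2 and 2 in controls. The controls were each below 3 counts, so its size is best read from the sums, 200 against 5 counts, a ratio of 39.1 (95% counting interval 16.5 to 122). No library of either group came near the other. The CD3 genes, which define T cells, had few counts in all libraries. Cd3e had 3, 0 and 1 counts in null-labelled libraries and 3, 4 and 5 in controls. Cd3d had 7, 0 and 3 against 2, 2 and 1, and Cd3g 0, 1 and 0 against 4, 0 and 0. The summed level of 7 T cell markers was 1.16 to 1.52 CPM against 1.32 to 1.73 CPM. Tnfrsf9 itself had 1.51 to 1.865 CPM in null-labelled libraries, and none of these levels is scaled to gene length. Lck and Cd4, the 2 that passed the count filter, were not called (log2 fold changes −0.42 ± 0.29 and 0.72 ± 0.34). Cd4 was higher in every null-labelled library (0.298 to 0.484 against 0.222 to 0.273 CPM). The part of T cells or of other cells in the level of Tnfrsf9 was not tested. Of Tnfrsf9's 50-base words 0% occur in another gene.

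Tnfrsf1b, the second receptor for tumour necrosis factor, was higher in every null-labelled library without passing (250, 219 and 227 against 212, 164 and 140 counts, log2 fold change 0.41 ± 0.12). Macrophages express it, and the macrophage markers given above rose with it; their part in its level was not tested. Of 6 growth signalling genes 1 changed (24% over the other members, 5.41% over all genes), Ctnnbip1, an inhibitor of β-catenin, which fell (43.3 to 46.3 against 50.95 to 55.5 CPM, log2 fold change −0.24 ± 0.05). Mtor had 160.3 ± 2.59 CPM in null-labelled libraries and 151.5 ± 3.07 CPM in controls (SD, n = 3), and Errfi1, a feedback inhibitor of the EGF receptor, 30.7 ± 0.660 and 32.9 ± 3.62 CPM. Agtrap (42.5 to 45.3 against 38.5 to 42.2 CPM), which binds the angiotensin receptor, and Spsb1 (17.3 to 19.3 against 15.8 to 16.5 CPM), a ubiquitin ligase adaptor, were higher in every null-labelled library, and Pik3cd, a catalytic subunit of PI3 kinase, overlapped (6.69 to 8.09 against 6.72 to 8.75 CPM). None of these 5 was called.

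Both F-box members changed, in opposite directions (24% called over the other members, 5.41% over all genes). Nothing is read from this count, since the segment was chosen by its calls. Fbxo44, a substrate adaptor of SCF ubiquitin ligases at 148152800 to 148160482, had 970, 956 and 1083 counts in null-labelled libraries against 535, 391 and 386 in controls. In CPM this was 24.1, 26.3 and 26.2 against 12.2, 10.9 and 10.9, a log2 fold change of 1.17 ± 0.07. Its neighbour Fbxo6, which recognises glycoproteins, had 16.4, 15.2 and 14.4 CPM in null-labelled libraries and 18.8, 19.6 and 18.1 CPM in controls (log2 fold change −0.30 ± 0.07). The lower ends of the genes lie at 148152800 for Fbxo44 and 148145716 for Fbxo6, and 0% of the 50-base words of either occurs in another gene.

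Of 13 genes of mitochondria and metabolism 4 changed, 1 higher and 3 lower, with 24% called over the other members and 5.41% over all genes; nothing is read from this count, since the segment was chosen by its calls. Rbp7, a cellular retinol-binding protein, had 10.5, 10.7 and 13.1 CPM in null-labelled libraries and 23.4, 19.7 and 18.9 CPM in controls, a log2 fold change of −0.85 ± 0.11. Endothelial markers fell with it, as given above, and their part in this fall was not tested. Nmnat1, which makes nuclear NAD, was lower (16.6 to 17.85 against 20.15 to 21.3 CPM, log2 fold change −0.27 ± 0.06). H6pd, the glucose-6-phosphate dehydrogenase of the endoplasmic reticulum, was higher (74.0 to 77.3 against 62.6 to 66.65 CPM, log2 fold change 0.23 ± 0.04). Mfn2 was the most abundant member, with 753, 719 and 709 CPM in null-labelled libraries and 757, 741 and 671.5 CPM in controls, and its log2 fold change was 0.01 ± 0.05. Park7, a redox sensor, Pgd of the pentose phosphate pathway and Pex14 of peroxisomal import had log2 fold changes of 0.01, 0.02 and −0.00. Plod1, a collagen lysyl hydroxylase, was at −0.16 ± 0.07 with null 1 apart from the other null-labelled libraries (180.9, 152.3 and 149.4 CPM, against 177.5, 177.6 and 183.8 CPM in controls), and it passed without null 1. Srm, the spermidine synthase, was at −0.14 ± 0.05, the mitochondrial carrier Slc25a33 at 0.14 ± 0.11 and the fructose transporter Slc2a5 at 0.24 ± 0.28, none of them called.

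Secreted and transport genes changed in part. Masp2, a serine protease of the lectin complement pathway made mainly by liver, had 31, 40 and 24 counts in null-labelled libraries and 90, 62 and 73 in controls (log2 fold change −1.26 ± 0.25). Its exons overlap those of Tardbp on the other strand and 52.5% of its words occur there, and since the strand setting is not given its counts are uncertain; Tardbp itself had a log2 fold change of −0.06 ± 0.04. The liver marker Alb had 57, 20 and 125 counts in null-labelled libraries and 3, 12 and 322 in controls, groups that overlap; its part in Masp2's level was not tested. Cort, which encodes the neuropeptide cortistatin, had 9, 8 and 11 counts in null-labelled libraries and 19, 34 and 26 in controls, a ratio of the sums of 0.347 (95% counting interval 0.217 to 0.540). Clcn6, a late endosomal chloride transporter that adjoins Nppa, had 54.7, 57.8 and 55.7 CPM in null-labelled libraries and 70.9, 70.8 and 68.0 CPM in controls (log2 fold change −0.32 ± 0.04). Ube4b, a ubiquitin chain elongation factor, was higher by a log2 fold change of 0.14 ± 0.03 (141 to 143.5 against 127.7 to 131.5 CPM); an antisense gene, Ube4bos3, overlaps it (log2 fold change −0.16 ± 0.25). The secreted Angptl7 (0.30 ± 0.32), the membrane protein Clstn1 (0.01 ± 0.04), the motor Kif1b (0.00 ± 0.04), the vesicle protein Vamp3 (−0.08 ± 0.04) and the mitochondrial Dnajc11 (−0.11 ± 0.05) were not called.

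**Figure D3:**
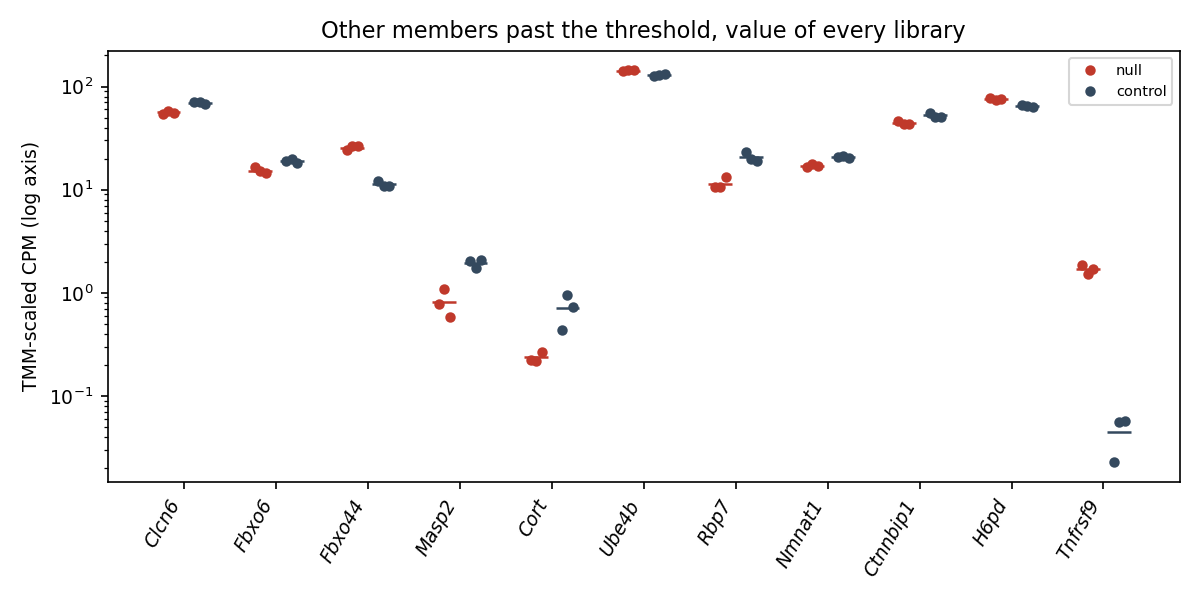
TMM-scaled CPM (log axis) of 11 of the other members past the threshold, in order along the chromosome, with 3 null-labelled libraries in red to the left of 3 control libraries in dark blue and a line at each mean. Tnfrsf9 stands apart, with 1.51 to 1.865 CPM in null-labelled libraries and at most 0.0566 CPM in controls.

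Of 6 transcription genes 0 were called by edgeR, DESeq2 or limma-voom, and 1 had an unadjusted p under 0.05. Of 5 genes of genome and RNA upkeep 0 were called by these tools, and 1 had an unadjusted p under 0.05. Over all tested genes edgeR called 5.41%, and 3033 of 14815 had an unadjusted p under 0.05. The upkeep genes were Exosc10 of the RNA exosome (0.05 ± 0.03), Mad2l2 of translesion synthesis (−0.17 ± 0.07), Dffa, the inhibitor of the apoptotic nuclease (−0.04 ± 0.05), the kinetochore gene Cenps (−0.22 ± 0.11) and Tardbp, each as a log2 fold change. Rere, a nuclear receptor coregulator, Camta1, a calmodulin-binding factor whose gene body overlaps Tnfrsf9, and Per3 of the circadian clock had log2 fold changes of 0.04, −0.04 and 0.10. In Per3, null 3 stood above the rest at 31.6 CPM, with 23.8 and 24.6 CPM in the other null-labelled libraries and 23.3 to 27.2 CPM in controls. Fv1 was near this pattern on the control side: it had 13.13, 13.89 and 13.15 CPM in null-labelled libraries and 8.25, 10.1 and 13.22 CPM in controls, so that control 3 reached the null-labelled level. Further members, Gpr157 (log2 fold change 0.20), Miip (0.11), Lzic (0.09), Tmem201 (−0.10) and Rps19-ps3 (−0.27), were not called.

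Genes past the threshold lay just outside the segment on both sides. In the 1 Mb steps from 147, 148 and 149 Mb, 6 of 13, 6 of 17 and 6 of 17 tested genes changed, counting Nppb. From 145 Mb it was 1 of 3, and from 150 Mb 2 of 8, counting Eno1. From 146 Mb, 0 of 2 were called by edgeR, DESeq2 or limma-voom, and 1 had an unadjusted p under 0.05. Over all tested genes 5.41% changed, and 3033 of 14815 had an unadjusted p under 0.05 by edgeR. Nothing is read from these counts, since the segment was chosen by its calls. In the last step, from 151 Mb, 0 of 5 were called by edgeR, DESeq2 or limma-voom, and 0 had an unadjusted p under 0.05. Just outside the lower border lie Vps13d (log2 fold change 0.18, called higher), Dhrs3 (−0.12) and Pramef8 (0.23), and just inside Tnfrsf1b (0.41), Zfp990 (−0.48) and Gm13212 (−0.81). At the upper border Dnajc11 (−0.11), Thap3 (0.10) and Phf13 (0.07) lie inside and Klhl21 (0.01), Zbtb48 (−0.13) and Tas1r1 (0.12) outside. In the first 1 Mb above the border 1 of 15 tested genes changed, Plekhg5, which fell (log2 fold change −0.28 ± 0.05) and starts 7.07 Mb from the lower border of the segment; it is named after its value was seen. The members nearest the minimum sum were Cort, Zfp981 and Tnfrsf9, with 107, 154 and 205 counts, and Disp3, Draxin and Gm13090 stayed under it with 47, 43 and 34. In the 7 Mb below the segment 2 of 62 tested genes changed (3.23%). Between its upper border and the end of the chromosome, a stretch not set to 7 Mb, 4 of 78 changed (5.13%). Of the genes left out by the rule, Nppb (67.7 ± 9.24 against 133.6 ± 2.59 CPM) fell, Eno1 (170.0 ± 11.3 against 105.6 ± 4.85 CPM) rose, and Nppa had 171.1 to 375.1 CPM against 652.7 to 729.5 CPM without being called.

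**Figure D4:**
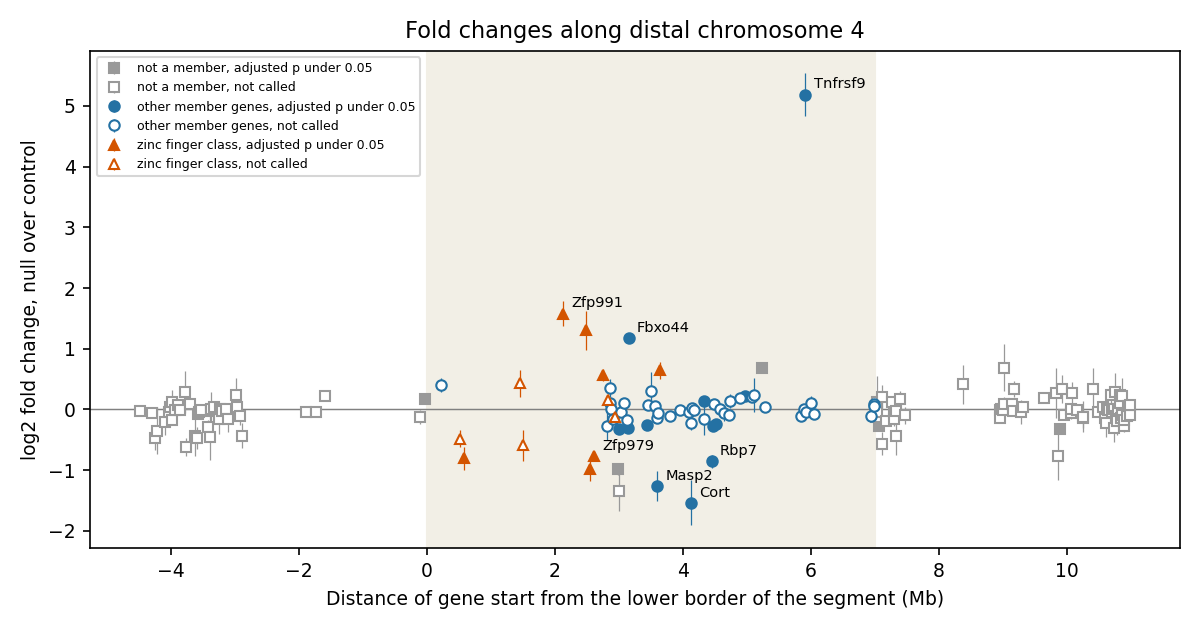
Log2 fold change of null-labelled over control with its SE (y axis) of each tested gene by the distance of its start from the lower border of the segment in Mb (x axis); the segment is shaded, filled symbols mark an adjusted p under 0.05, and Nppa, Nppb and Eno1 are the grey squares inside the shading. Within the shading, filled symbols lie both above and below 0, and the last of them is Tnfrsf9.

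Of 353 tested Zfp genes outside the segment 10 changed (2.83%), 2 higher and 8 lower, and their median size of change was 0.08. Zfp57, a KRAB zinc finger protein that guards imprints, fell (log2 fold change −0.33 ± 0.07, adjusted p = 0.0348), as did Zfp462, on chromosome 4 at 54945048 (−0.30 ± 0.05, adjusted p = 0.00815), and Zfp365 rose (1.06 ± 0.23, adjusted p = 0.0283). Leaving out a library brought the count to between 2 (without null 1 or null 2) and 6. Of 29 genes for corepressors and chromatin factors that act with KRAB zinc finger proteins 3 changed (10.3%, against 5.41% of all genes tested). The groups did not overlap for 11 of the 29 (3 higher, 8 lower), against 26.6% of all genes. Cbx1, a heterochromatin protein, and Hdac1, a histone deacetylase, fell (log2 fold changes −0.21 ± 0.04 and −0.32 ± 0.08, adjusted p = 0.0272 and 0.0471). Daxx, a histone H3.3 chaperone, rose (0.26 ± 0.06, adjusted p = 0.0345). The call of Daxx was lost without any single library (adjusted p from 0.0539 to 0.105), that of Cbx1 without null 1, null 3 or control 2 and that of Hdac1 without any library but null 1 (highest adjusted p 0.0964 and 0.16). Trim28, the corepressor itself, was at −0.03 ± 0.05 on the log2 scale (adjusted p = 0.779), and Setdb1, the histone methyltransferase it recruits, at −0.17 ± 0.04 (adjusted p = 0.0581).

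Windows of the same 7 Mb width around the genes behind the alleles were read for comparison. Around Prox1, 3 of 47 tested genes changed (6.38%), Prox1 itself, Dtl and Kcnh1, with log2 fold changes of 0.15, −0.22 and 0.84; the count was 0 without any single library other than control 3, and 6 without control 3. Around Cdh5, which encodes VE-cadherin, 4 of 85 changed (4.71%), all lower: Fhod1, Slc9a5, Slc7a6 and Exoc3l, by −0.29, −0.43, −0.19 and −0.38. This count was 0 without null 1 or null 2, 1 without null 3 or control 2, and 2 without control 1. The difference of either window from the chromosome 4 stretch was not tested. The labels do not say where the Cre transgene is inserted.

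Of the 19 members called, 6 kept the call whichever library was left out: Zfp991, Zfp979, Clcn6, Fbxo44, Rbp7 and Tnfrsf9. Among the zinc finger class, the call of Zfp984 ended without null 1 or null 2 (highest adjusted p 0.0668) and that of Zfp985 without null 2, null 3 or control 2 (0.0889). Gm572 lost it without control 1 or any null-labelled library (0.109), Gm13212 without any library but control 1 (0.11) and Zfp982 without any but control 3 (0.143). Among the others, Masp2 lost its call without null 1 or null 3 (highest adjusted p 0.0742) and H6pd without control 2 or any null-labelled library (0.062). Fbxo6 and Ctnnbip1 lost it without null 2, null 3, control 1 or control 2 (0.135 and 0.109). Cort lost it without any library but control 1 (0.139), and Ube4b and Nmnat1 without any but control 3 (0.127 and 0.109). DESeq2 and limma-voom each called 18 of the 19, all but Cort. Some members not called with all libraries passed when a library was left out. These were Plod1 without null 1, Zfp990 without control 1, and Fv1, Gpr157 and Dnajc11 without control 3. With null 2, the library with the Sftpc counts, as the only null-labelled library, the 3 members called were Zfp979, Fbxo44 and Tnfrsf9 (log2 fold changes −0.79, 1.22 and 5.02).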

How the data were processed

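Unnormalised whole-number counts for each Ensembl gene were deposited by the authors for every library. The submitters' processing notes name build mm10, HTSeq 0.6.1p1, STAR, cutadapt 1.13 and DESeq2, without roles; annotation release and strand setting: not given in the sources used here. GENCODE M21 (GRCm38, the same build) matched 24991 of 25006 identifiers.

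Genes were filtered with filterByExpr, scaled by TMM and compared, null over control, with edgeR 4.0.16 in R 4.3.3 (quasi-likelihood F test, robust, group only, two-sided, Benjamini-Hochberg over all genes tested, called at adjusted p under 0.05). SE was derived from the fold change and F. The test was tried on simulated data. Limma 3.58.1 (limma-voom), DESeq2 1.42.0, other scalings and filters, and omitted libraries were alternatives. Intervals cover counting error only. All libraries of a group differed by more than sampling noise (chi-square per degree of freedom 9.18 to 27.9).

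Members and lists were chosen with earlier results of these data known. Genes named are, per class, the 12 called members of largest change and the 8 most abundant uncalled ones, the 8 role lists, the genes nearest the borders and called corepressors; Fv1, Zfp992, Zfp981, Trim28, Setdb1 and Zfp genes elsewhere were picked after their values were seen. Results of some members entered all counts but are not reported here by gene.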

Additional observations from a re-analysis of the deposited data

How the results depend on the processing

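Of the 62 members' log2 fold changes, 11 moved by more than the spread between replicates under some alternative and 0 of those called changed sign. The numbers changed among all genes, members, zinc finger class, other members, corepressors, Zfp genes elsewhere and the windows around Prox1 and Cdh5 were 801, 19, 7, 12, 3, 10, 3 and 4. Leaving out each library in turn, they ranged over 258 to 942, 7 to 20, 2 to 6, 4 to 14, 0 to 3, 2 to 6, 0 to 6 and 0 to 5. Among members, 7 were called without null 2 or null 3, 9 without control 2, 11 without null 1, 13 without control 1 and 20 without control 3. Without null 1 and null 3, where null 2 is assumed to vary like the controls, they were 52, 3, 1, 2, 0, 0, 0 and 0. At an adjusted p under 0.1, the counts over all tested genes, corepressors, Zfp genes elsewhere and the Cdh5 window were 1430, 7, 18 and 7. With no filter and with DESeq2, 5 corepressors changed. The zinc finger class median of 0.023 became −0.117 for genes with at least 300 counts and −0.109 with the class set by the C2H2 pattern, an alternative added after the data were seen; fewer genes enter both. The median of the other members, −0.001, ranged from −0.015 to −0.004 with a library left out and was −0.008 without null 1 and null 3. Same-numbered libraries did not deviate together (r = −0.064, −0.047 and −0.121), so the numbers were not read as pairs; with the replicate block 11 members, 4 of the zinc finger class, 7 other members, 3 Zfp genes elsewhere, 0 genes of the Prox1 window and 1 of the Cdh5 window were called. The cause of these moves was not tested. A class set by RefSeq proteins was not run. Genes under 3 counts could not be measured at this depth.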

Other observations

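The segment lists 28 further genes, of which 3 were left out by name and 25 had fewer than 60 counts over all libraries. Of these 25, 10 carry Zfp, Gm or Rik symbols and 7 of the 25 had 0 counts, among them Rex2 and Zfp987, both of the zinc finger cluster. Tnfrsf8, which encodes CD30 and lies beside Tnfrsf1b, had 14, 4 and 2 counts in null-labelled libraries and 2, 2 and 1 in controls. Zfp534 had 5 counts summed over null-labelled libraries and 10 over controls, and Uts2, which encodes the vasoactive peptide urotensin-2, had 9 and 2. Fbxo2, directly beside Fbxo44, had 12 and 7. These values are too low to be tested.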
